A study of Homo sapiens with 6 samples.

Results

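The genes described here are 10 direct transcriptional targets of the tumor suppressor p53, namely CDKN1A, MDM2, GDF15, TP53I3, FAS, SESN1, BBC3, BAX, RRM2B and ZMAT3. They were chosen by name and matched to the symbol column of the count table, where all 10 were found among 30230 genes, and all 10 passed the filter on low counts. RNA-seq had been performed on polyadenylated RNA from A549 cells, a human lung adenocarcinoma cell line. The control group (NC, 3 libraries) was transfected with a control and the siFSCN1 group (3 libraries) with an siRNA against FSCN1, which encodes the actin-bundling protein fascin. Cells were collected 48 h after transfection. The methods name a scrambled siRNA for NC, whereas the labels call the NC treatment a control plasmid. The libraries rest on 1 cell line and 1 siRNA sequence, so an effect of FSCN1 loss and another effect of that siRNA cannot be told apart.

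p53 is a transcription factor that is held at a low level by the ubiquitin ligase MDM2 and accumulates after DNA damage and other stress. It binds DNA as a tetramer and switches on genes that halt the cell cycle, supply repair, or start cell death through mitochondria or through death receptors at the cell surface. A549 cells are known to have lost CDKN2A, the gene of the MDM2 inhibitor p14ARF, and the count table had no row for it.

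Direct targets of p53 are, by textbook definition, genes that p53 binds at a DNA element. The p53 consensus motif, 20 bases built from a pair of 10-base repeats with no gap, was therefore searched in GRCh38 within 5000 bases of the start of each gene's canonical transcript. The motif reads the same on both strands, so that 1 search covers both. A match had to keep the invariant C and G of each repeat. With up to 2 mismatches, 7 of the 10 genes held a match, against 7.80% of the 13597 protein-coding genes that were tested and annotated. With up to 3 mismatches all 10 held one, against 42.8% of the same genes. These matches are a description of sequence and not evidence of binding in these cells. The 10 genes were chosen as known p53 targets, so a share above that of all genes is no separate support for that choice. The best matches of BBC3, TP53I3 and SESN1 had 3 mismatches, a level common among all genes. Such a match cannot by itself tell whether a p53 element lies there. The best match of 9 genes is shown on the strand of the gene, 5′ to 3′, and capitals mark the bases that differ from the consensus.
ZMAT3: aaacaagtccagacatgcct
CDKN1A: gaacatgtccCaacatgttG
MDM2: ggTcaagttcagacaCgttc
GDF15: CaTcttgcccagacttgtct
FAS: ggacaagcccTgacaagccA
BAX: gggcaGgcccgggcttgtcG
BBC3: CTgcaagtccTgacttgtcc
TP53I3: CagcttgcccaCCcatgctc
SESN1: gggcttgttGgCacGtgcct

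The match of ZMAT3 had 0 mismatches, which 0.154% of the searched genes reached, and lay in an intron, 1602 bases after the start (chr3:179070188-179070207, minus strand). That of CDKN1A lay upstream, at -2265 bases from the start of the canonical transcript (chr6:36676449-36676468, plus strand). The matches of MDM2 (chr12:68808923-68808942), FAS (chr10:88991309-88991328) and BAX (chr19:48955213-48955232) lay in introns, 746, 511 and 338 bases after the start, all on the plus strand. The matches upstream of GDF15 (chr19:18385308-18385327, plus strand), TP53I3 (chr2:24085165-24085184, minus strand) and BBC3 (chr19:47231320-47231339, minus strand) began at -850, -350 and -140 bases from the start, and TP53I3 had 3 equally good matches. SESN1 had its best match upstream at -3749 bases (chr6:109098576-109098595, minus strand), with 3 mismatches. RRM2B had 1 mismatch, 2102 bases into the gene in an intron. Of the genes whose changes are described next, ZMAT3 (0 mismatches), MDM2 (2) and BBC3 (3) rose. RRM2B (1), CDKN1A (2), GDF15 (2), BAX (2), TP53I3 (3) and SESN1 (3) fell. Whether mismatches go with direction was not tested.

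Depth was alike in all libraries, with between 27967301 and 36560919 counts. FSCN1 fell to 6.75% of its NC level, from 214 ± 4.67 to 14.4 ± 3.37 CPM (SD, n = 3), where CPM denotes counts scaled for library size with TMM factors. The keratins KRT8 and KRT18 were among the epithelial markers, which summed to between 2594 and 2986 FPKM (fragments scaled for transcript length and library depth, as deposited) in NC and between 1519 and 1846 FPKM in siFSCN1. KRT8 and KRT18 made up nearly all of this sum and fell, as did CLDN4, while CDH1 (log2 fold change 1.35) and EPCAM (0.29) rose. The markers of fibroblasts, blood and endothelium each summed to at most 0.70 FPKM in any library.

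The p53 targets did not move as 1 group. At an adjusted p under 0.05 in edgeR's quasi-likelihood test, 3 of the 10 were higher in siFSCN1 and 6 were lower, and FAS did not pass. Across all 17076 genes tested, 35.1% were higher and 33.2% lower by the same rule, 68.3% in all. With library totals these shares were 46.7% and 22.4%, and the 10 genes still split into 3 higher and 6 lower. CDKN1A, GDF15, BAX and SESN1 fell at least 2-fold, a call that 4.85% of all genes reached in that direction and 16.5% in either. MDM2, BBC3 and ZMAT3 rose, each by less than 2-fold. The median log2 fold change of the 10 genes was -0.35, against 0.03 for all genes. The CPM of 9 of the 10 genes did not overlap between the groups, against 71.3% of all genes tested. In these cultures fewer cells that express a gene and less RNA per cell cannot be told apart.

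**Figure D1:**
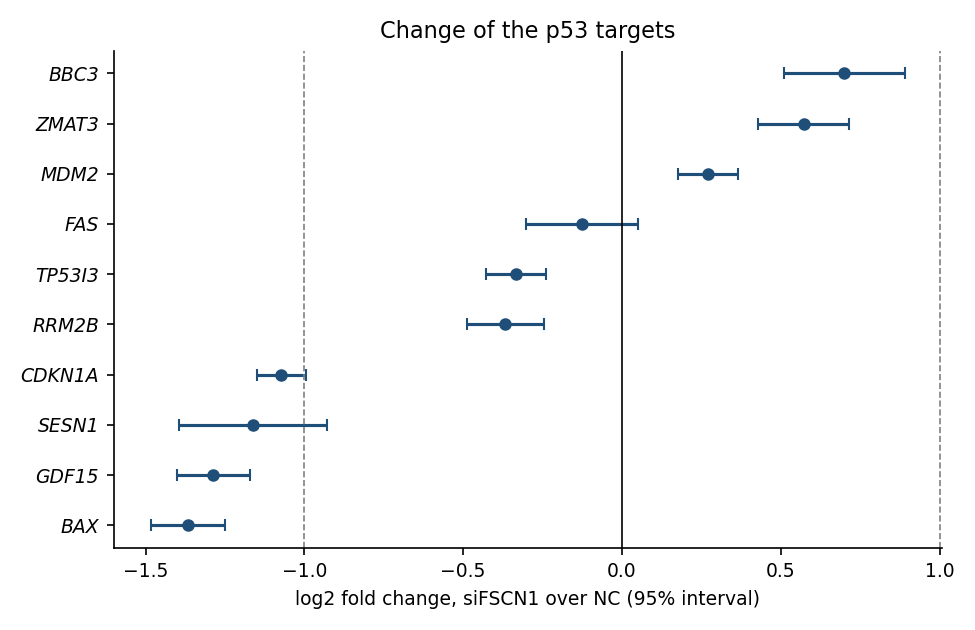
Log2 fold change (x axis, siFSCN1 over NC) of the 10 p53 targets, with 95% intervals from edgeR as bars and dashed lines at a 2-fold change in either direction. BAX, GDF15, SESN1 and CDKN1A lie at -1.37 to -1.07, BBC3, ZMAT3 and MDM2 lie above 0, and the interval of FAS includes 0.

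Among genes of cell cycle arrest and feedback, the arrest gene fell while the feedback gene rose. CDKN1A encodes p21, the inhibitor of cyclin-dependent kinases through which p53 halts the cell cycle. It stood at 271, 269 and 269 CPM in the NC libraries and at 129, 126 and 130 CPM in the siFSCN1 libraries. Every siFSCN1 library lay well below every NC library. This was a log2 fold change of -1.07 ± 0.036 (SE, as for all fold changes given with an error, adjusted p = 3.1e-14 in edgeR), which left 47.6% of the NC level. The direction held under each alternative, but the 2-fold mark was missed with upper quartile scaling (-0.95), with library totals (-0.89), with both limma fits on FPKM (-0.90 and -0.89) and once the trend of change with abundance was removed (-0.81). On the deposited FPKM the fall was from 71.5 ± 0.279 to 38.2 ± 1.08 (SD, n = 3). DINOL, a long non-coding RNA gene, overlaps CDKN1A on the opposite strand and had no row in the table.

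MDM2, the ubiquitin ligase that marks p53 for degradation and is itself switched on by p53, stood at 77.0, 81.7 and 81.2 CPM in NC and at 95.3, 95.1 and 99.1 CPM in siFSCN1. The groups did not overlap, and the shift was small beside those of the genes that fell 2-fold. Its log2 fold change of 0.27 ± 0.044 (adjusted p = 2.9e-05 in edgeR) amounted to 121% of the NC level. The coding gene CPM (carboxypeptidase M) overlaps MDM2 on the opposite strand, with a mean of 153 counts in NC against 2386 for MDM2. Its mean was 125 counts in siFSCN1. A long non-coding RNA gene on the opposite strand, ENSG00000257181, also shares exonic sequence with MDM2 and had means of 39.3 counts in NC and 49.7 in siFSCN1.

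The cell death genes split between mitochondrial effectors that moved in opposite directions. BAX forms pores in the outer mitochondrial membrane, and BBC3 encodes PUMA, a protein with only a BH3 domain that frees BAX from its inhibitors. BAX stood at 257, 235 and 243 CPM in NC and at 106, 89.7 and 89.9 CPM in siFSCN1. All siFSCN1 libraries lay far below the NC libraries, and replicate 1 was the highest of its group in both. BAX changed by -1.37 ± 0.055 on the log2 scale (adjusted p = 2.9e-13 in edgeR), the lowest fitted value of the 10 genes. Its 95% interval overlapped that of GDF15, and GDF15 (-1.34) was below BAX (-1.33) without NC replicate 1, as was SESN1 (-1.27) below BAX (-1.12) once the abundance trend was removed. The fall of BAX remained over 2-fold in all 16 alternatives, from -1.46 to -1.12.

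BBC3 stood at 9.83, 11.2 and 10.7 CPM in NC and at 18.1, 16.4 and 17.1 CPM in siFSCN1. It rose by 0.70 ± 0.090 on the log2 scale (adjusted p = 1.8e-06 in edgeR), the highest fitted value of the 10, with a 95% interval that overlapped that of ZMAT3. The groups were separated by more than the range within either. FAS, the death receptor for FAS ligand, stood at 15.9, 15.9 and 14.8 CPM in NC and at 13.3, 14.3 and 14.9 CPM in siFSCN1, where the highest siFSCN1 library exceeded the lowest NC library. The log2 fold change was -0.13, with a 95% interval from -0.30 to 0.05 and an adjusted p of 0.189 in edgeR. Its sign turned with library totals (0.061) and in both limma fits on FPKM (0.034 and 0.025). FAS shares exonic sequence with STAMBPL1 on the same strand and with ACTA2 on the opposite strand, which had means of 544 and 194 counts in NC against 461 for FAS, so its value is uncertain.

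The secreted and metabolic targets fell, by unequal amounts. GDF15, a stress-induced hormone of the TGF-beta superfamily that curbs appetite, stood at 110, 128 and 121 CPM in NC and at 50.8, 48.6 and 47.97 CPM in siFSCN1. The groups were far apart, at a log2 fold change of -1.29 ± 0.055 (adjusted p = 5.0e-13 in edgeR). The fall stayed over 2-fold in all 16 alternatives. SESN1 encodes sestrin 1, a stress-induced inhibitor of mTORC1 signalling. It stood at 13.3, 14.3 and 14.1 CPM in NC and at 6.11, 5.53 and 6.95 CPM in siFSCN1, which is -1.16 ± 0.111 on the log2 scale (adjusted p = 3.3e-08 in edgeR). Its groups were also separate, and its fall was under 2-fold with library totals (-0.98) and in both limma fits on FPKM (-0.94 and -0.60).

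TP53I3 (PIG3), a quinone oxidoreductase-like protein linked to reactive oxygen species, stood at 116, 110 and 111 CPM in NC and at 92.5, 88.8 and 85.9 CPM in siFSCN1. RRM2B, the p53-inducible small subunit of ribonucleotide reductase that supplies deoxynucleotides for repair, stood at 36.6, 33.8 and 37.7 CPM in NC and at 26.2, 29.2 and 28.5 CPM in siFSCN1. The gene FAM228B overlaps TP53I3 on the opposite strand, with means of 55.0 counts in NC and 116 in siFSCN1 against 3348 for TP53I3 in NC. TP53I3 and RRM2B fell without overlap of the groups, TP53I3 with a log2 fold change of -0.33 and RRM2B with one of -0.37, and their adjusted p in edgeR were 2.6e-06 and 1.8e-05. These falls were smaller than those of the other 4 genes that fell, none of whose 95% intervals overlapped theirs. ZMAT3, a zinc finger protein that binds RNA and regulates splicing, rose from 19.3, 20.5 and 17.7 CPM in NC to 25.9, 30.1 and 29.3 CPM in siFSCN1. The rise was 0.57 ± 0.068 on the log2 scale (adjusted p = 6.1e-07 in edgeR), and the groups did not overlap.

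Levels can be compared between genes only per length, that is on the FPKM scale. In NC the order from the highest mean was BAX (75.2 FPKM ± 3.05, SD, n = 3), CDKN1A (71.5), GDF15 (45.7), TP53I3 (38.6), MDM2 (7.65), RRM2B (5.31), BBC3 (2.65), FAS (2.21), SESN1 (2.15) and ZMAT3 (1.35). Only FAS and SESN1 overlapped as neighbours. In siFSCN1 CDKN1A came first (38.2 FPKM ± 1.08, SD, n = 3), followed by TP53I3 (34.4) and BAX (32.8), whose libraries overlapped. BAX thus went from the first to the third place. SESN1 was last at 1.08 FPKM, below ZMAT3 (2.24) and FAS (2.27), which overlapped, as did BBC3 (4.82) and RRM2B (4.62). FPKM carry no TMM scaling, under which siFSCN1 libraries were scaled down relative to NC. With library totals the median log2 fold change of all genes rose to 0.22 from 0.03, and with limma on log2(FPKM + 0.1) to 0.17.

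**Figure D2:**
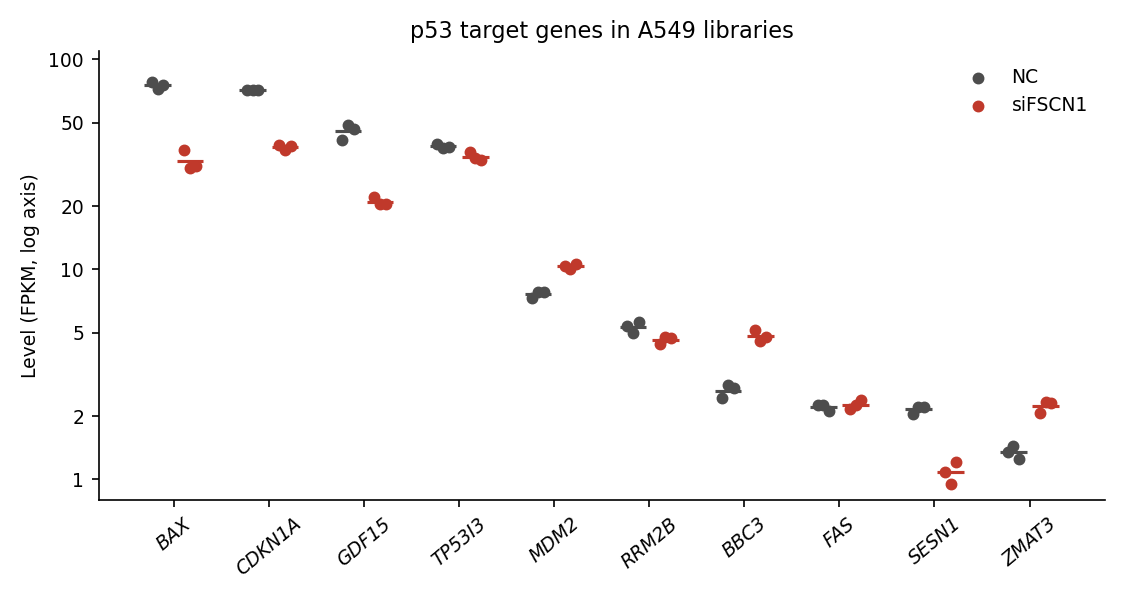
Deposited FPKM (y axis, log scale) of the 10 p53 targets in the 3 NC (grey) and 3 siFSCN1 (red) libraries, genes ordered by their NC mean. Points are libraries and bars are group means. BAX, CDKN1A, GDF15 and SESN1 drop, BBC3, ZMAT3 and MDM2 rise, and the points of FAS overlap.

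The number of reads behind a gene, which depends on its length as well as its level, also varied among the 10. The 4 genes that fell at least 2-fold included those with the highest and the lowest mean log2 CPM, CDKN1A at 7.64 and SESN1 at 3.32. BBC3 (3.81) and FAS (3.90) lay close to SESN1 on this scale and differed from it in direction or call. After the trend of change with abundance over all genes was removed, each of the 9 genes that passed kept its direction.

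**Figure D3:**
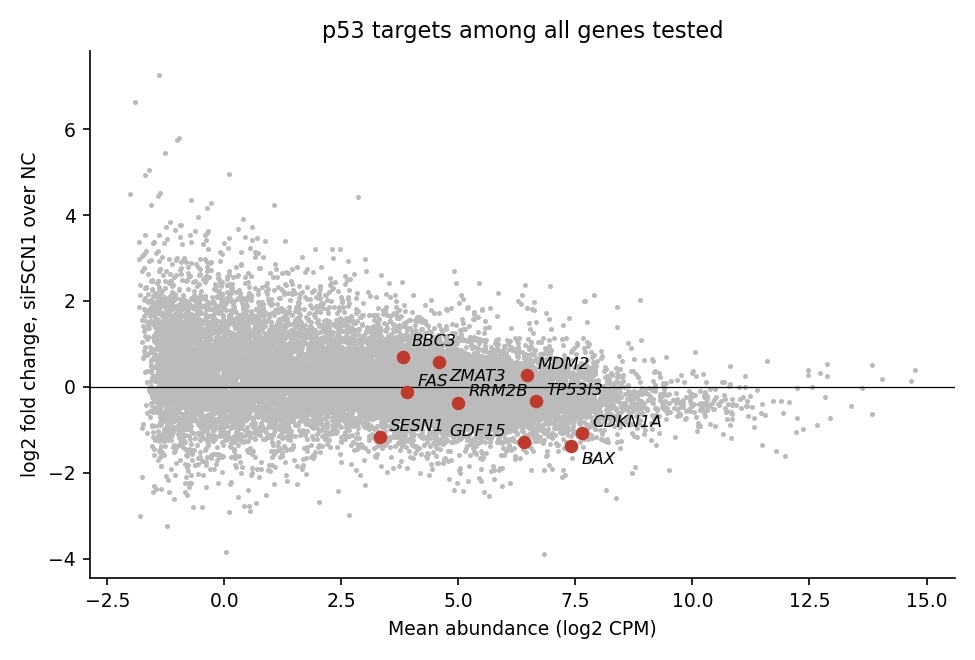
Log2 fold change (y axis, siFSCN1 over NC) against mean log2 CPM (x axis, not scaled for gene length) for all 17076 genes tested (grey) and the 10 p53 targets (red). The p53 targets lie between 3.32 and 7.64 log2 CPM and on both sides of 0.

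MDM4, which binds p53 and blocks its activity, rose from a mean of 21.4 to one of 32.5 CPM, a log2 fold change of 0.60 with an adjusted p of 1.3e-07 in edgeR. This rise was larger than that of its partner MDM2, with 95% intervals that did not overlap.

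Among the other regulators of p53, the ligase gene RCHY1 and the nucleolar proteins NPM1 and GNL3 fell. Of 28 listed regulators 26 were tested, with 8 higher, 10 lower and 8 that did not pass, or 30.8% higher and 38.5% lower, near the 35.1% and 33.2% of all genes. The balance turned with the scaling, and the shares of all genes moved too. With library totals 12 were higher and 7 lower, against 46.7% and 22.4% of all genes. Upper quartile scaling gave 11 and 9, against 42.1% and 26.4%. Both limma fits on FPKM gave 10 and 6. The shares of all genes were 43.8% and 23% in the fit with pseudocount 0.1. RCHY1, which encodes the p53 ubiquitin ligase PIRH2, had a log2 fold change of -0.90. NPM1 (nucleophosmin) and GNL3 (nucleostemin), which both act on MDM2 from the nucleolus, had log2 fold changes of -0.68 and -0.61. At 1 FPKM or more, the largest rises beside that of MDM4 were those of PPP1R13B (0.63), which encodes the p53 cofactor ASPP1, and TP53BP1 (0.27), a scaffold of double-strand break repair. Below that level, the kinase genes ATM (0.88, mean of 0.48 FPKM in siFSCN1) and ATR (0.37, mean of 0.91 FPKM) also rose. TP63, a p53 family member, rose from 0.380 to 2.11 CPM with a mean of 0.25 FPKM in siFSCN1, and TP73 was too low to be tested. ATM, ATR and TP63 were named after their values were seen.

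A broader list of 53 other p53 targets also held genes of both directions. Of these, 49 were tested, with 15 higher (30.6%, against 35.1% of all genes), 21 lower (42.9%, against 33.2%) and 13 that did not pass. Their median log2 fold change was -0.09, against 0.03 for all genes. With library totals the list had 20 higher and 20 lower of 49, against 46.7% and 22.4% of all genes. Both limma fits on FPKM gave 20 and 19. The shares of all genes were 43.8% and 23% in the fit with pseudocount 0.1. The largest falls were those of SERTAD1 (-1.78), a regulator of CDK4 and E2F, EPHA2 (-1.49), an ephrin receptor kinase, TNFRSF10B (-1.32), the death receptor for TRAIL known as DR5, and SFN (-1.23), the 14-3-3 protein sigma that acts at the G2/M checkpoint. SFN went from 383 ± 2.47 to 163 ± 9.20 CPM and TNFRSF10B from 178 ± 10.8 to 71.2 ± 1.48 CPM (SD, n = 3). The largest rises were those of SPATA18 (1.08), which acts in mitochondrial quality control, SUSD6 (0.96), PERP (0.91), a tetraspan membrane protein of desmosomes and apoptosis, and KITLG (0.78), the ligand of the KIT receptor. PERP went from 288 ± 11.5 to 540 ± 18.2 CPM (SD, n = 3). The adjusted p of these 8 genes in edgeR were at most 2.4e-07.

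By function, the shares of these targets that rose lay between 25% and 35.7% and the shares that fell between 33.3% and 50%, beside 35.1% and 33.2% of all genes. Among 14 cell death genes tested 5 rose and 6 fell, with the TRAIL receptor genes TNFRSF10B and TNFRSF10A (-0.90) lower and the decoy receptor gene TNFRSF10D (0.61) higher. TNFRSF10A and TNFRSF10D were named after their values were seen. Among 12 cell cycle and repair genes 3 rose and 5 fell, among 9 genes of metabolism and autophagy 3 rose and 3 fell, and among 14 genes of signalling and other functions 4 rose and 7 fell.

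**Figure D4:**
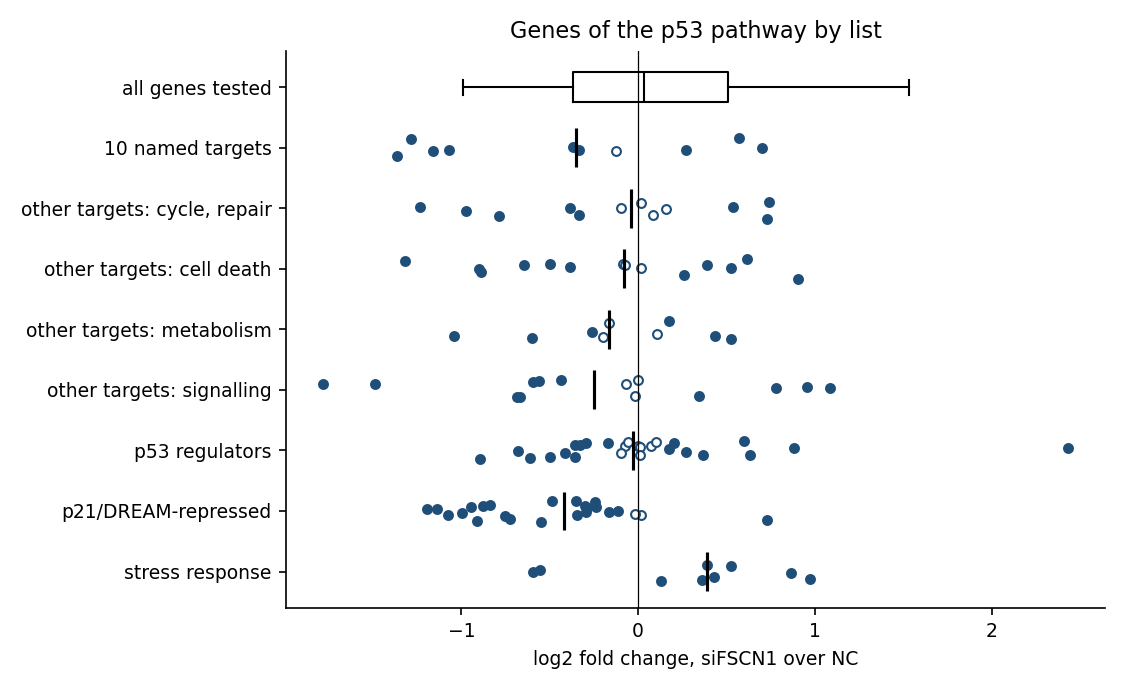
Log2 fold change (x axis, siFSCN1 over NC) of the genes tested in each list (rows). Filled points passed an adjusted p under 0.05, open points did not, and vertical bars are medians. The box of all genes shows the quartiles with whiskers at the 5th and 95th percentiles. The p53 targets spread to both sides of 0. Of 24 genes repressed through p21 and DREAM, 21 lie below it and passed, against 33.2% of all genes. With library totals 14 did, against 22.4% of all genes.

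Genes that p53 switches off through p21 were mostly lower, as was CDKN1A. p21 lets the DREAM complex form, which silences genes of DNA replication and mitosis, so that their levels usually run opposite to that of p21. Of 24 such genes, 21 were lower (87.5%, against 33.2% of all genes) and CENPF was higher, with a median log2 fold change of -0.42. With library totals 14 of the 24 were lower, against 22.4% of all genes. Both limma fits on FPKM also gave 14, against 23% and 22.9% of all genes. CDC20 (-1.19), the activator of the anaphase-promoting complex, MYBL2 (-1.14), a transcription factor of the G2/M program, and AURKA (-1.08), a mitotic kinase, fell most. CENPF, a kinetochore protein, rose by 0.73 on the log2 scale. By root mean square difference of log2 CPM over the 6 libraries, each minus the gene's NC mean, AURKA was also the gene most like CDKN1A among 5026 protein-coding genes of at least 5 FPKM, at 0.0212, followed by ILF2, PPA1, SLC39A9 and RAE1, the last at 0.0278. Of the 5026 genes, 150 came within 0.1.

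GDF15, BBC3 and SESN2 can also be switched on without p53, by the integrated stress response, in which the transcription factor ATF4 raises genes of amino acid supply and stress. Of 9 genes of this response 7 rose (77.8%, against 35.1% of all genes) and 2 fell (22.2%, against 33.2%), with a median log2 fold change of 0.39. DDIT4, an inhibitor of mTORC1, rose from 125 ± 1.66 to 245 ± 4.77 CPM (SD, n = 3), a log2 fold change of 0.97. ATF3 (0.87) and SESN2 (0.53), the paralog of SESN1, rose as well, and SESN2 thus moved opposite to SESN1. SESN2 was also counted among the other p53 targets, so this list is not separate from them. ATF4 itself, named after its values were seen, had a log2 fold change of 0.13. PPP1R15A (-0.60), which ends the response, and ASNS (-0.56), the asparagine synthetase gene, fell. GDF15 fell while most of this list rose.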

How the data were processed

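RNA-seq libraries of A549 cells were grouped by sample title into NC and siFSCN1, with 3 libraries each that the study describes as biological replicates. The authors trimmed reads with the FASTX Toolkit, used HISAT2 for alignment to GRCh38, retaining reads with a unique position. The authors deposited raw counts per gene and, in a second table, FPKM. The submitters' processing notes also list TopHat2. Which program counted the reads, whether it used strand, and which annotation it read are not given in the sources used here, so reads of overlapping genes may not be separated.

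Genes were filtered by filterByExpr, scaled by TMM and tested with edgeR 4.0.16 (quasi-likelihood, R 4.3.3), with Benjamini-Hochberg adjustment over all 17076 genes. The study used DESeq2 at a 2-fold threshold. DESeq2 1.42.0 and limma 3.58.1 on log2(FPKM + 0.1) and log2(FPKM + 1) were alternatives, with other scalings, filters, a replicate block and each library left out. Standard errors came from the fold change and its F statistic. The test was run first on simulated data. Replicates differed by more than sampling noise (chi-square per degree of freedom 3.11 to 8.23). Positions came from GENCODE v44 and hg38. All members, FSCN1 and MDM4 were named, with the 4 (other targets) or 3 (other lists) largest rises and falls per list at 1 FPKM or more. A further planned gene is not reported here. Members, lists and tests were chosen with earlier results of these data known.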

Additional observations from a re-analysis of the deposited data

How the results depend on the processing

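The 3 rises and 6 falls among the 10 p53 targets had the same counts in all 15 alternatives that test them. The number that changed at least 2-fold was 4 in the main test, and 2 with library totals, in both limma fits (pseudocounts 0.1 and 1), and with glmTreat, which asks for evidence of more than a 2-fold change. The 2 were BAX and GDF15. The number was 3 with upper quartile scaling and with the trend over abundance taken out, where CDKN1A missed the 2-fold mark. Leaving out 1 library at a time kept it at 4. The median log2 fold change of the 10 was -0.35, and it was -0.23 with upper quartile scaling, -0.16 with library totals, -0.32 with the stricter filter, -0.18 and -0.17 in the limma fits, -0.24 with the trend over abundance taken out, and from -0.38 to -0.33 without 1 library. FAS, which did not pass, turned to 0.061, 0.034 and 0.025 with library totals and both limma fits. Of the regulators, 8 were higher and 10 lower in the main test, and 10 higher and 6 lower in both limma fits, 12 and 7 with library totals, and 11 and 9 with upper quartile scaling. Of the genes repressed through p21 and DREAM, 1 was higher and 21 lower in the main test, 2 and 19 with upper quartile scaling, 2 and 14 in both limma fits, and 3 and 14 with library totals. The shares of all genes called higher and lower also moved, from 35.1% and 33.2% in the main test. They were 46.7% and 22.4% with library totals and 42.1% and 26.4% with upper quartile scaling. In the limma fits they were 43.8% and 23% (pseudocount 0.1) and 43.5% and 22.9% (pseudocount 1). Library totals and upper quartile scaling shift all genes by one amount, and for the remaining settings the cause was not tested. FSCN1 fell in all 16 alternatives. Of 510 refits of single named genes with a test, 507 kept direction and side of the threshold. With the trend over abundance taken out, which gives values but no new test, all 34 named genes kept their direction.

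No pairing by replicate number was seen, since deviations of same-numbered libraries correlated at -0.03, 0.04 and -0.08. With the replicate block 3 targets were higher, 6 lower and 4 changed at least 2-fold, with a median of -0.35. Low read numbers limit the precision of SESN1, BBC3 and FAS. They had the largest standard errors of the targets, 0.111, 0.090 and 0.084, followed by ZMAT3 at 0.068.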
